A study of Mus musculus and Homo sapiens with 4 samples.

Results

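The Ifit and Ifitm antiviral genes were examined in mouse embryonic fibroblasts (MEFs) as 6 entries out of the 23329 listed for each library, chosen by symbol: Ifit1, Ifit2, Ifit3, Ifitm1, Ifitm2 and Ifitm3. MEFs are primary fibroblasts grown out of embryos. One library came from cells of wild-type (WT) embryos and the other from cells of NEAT1 knockout (KO) embryos, both on the C57BL/6 background, a line each derived at E13.5 and used at passages 2 to 3. Both cultures were grown in a mixture of DMEM and Ham F12 medium with fetal calf serum, with no treatment stated, and their poly-A RNA was sequenced. NEAT1 is the long non-coding RNA around which nuclear paraspeckles are built, and the labels do not say which portion of the gene was removed or how many embryos went into each culture. There was 1 library per condition, so no difference given here has a replicate check, and no test between conditions was made. The 6 genes were named with their values in these libraries known, so the values are a description.

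Ifit and Ifitm proteins are products of interferon-stimulated genes. A cell that senses viral nucleic acid secretes type I interferon, the interferon receptor signals through the kinases Jak1 and Tyk2 to the factor ISGF3, which includes Stat2 and Irf9, and ISGF3 binds interferon-stimulated response elements (ISREs) in the promoters of such genes. Ifit proteins lie in the cytoplasm, carry tetratricopeptide repeats, and bind viral RNA or translation initiation factors. Ifitm proteins are small membrane proteins that hinder the fusion of enveloped viruses with the plasma membrane or with endosomes. The genes form a cluster on chromosome 19 (Ifit) and another on chromosome 7 (Ifitm).

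Values were RPKM (reads per kilobase of entry, scaled to the mapped reads of the library), which can be compared between genes. The log2 ratio given throughout is that of KO over WT after 1 RPKM was added to each, which understates the difference of genes with low values. Among the 10888 entries that reached 1 RPKM in WT and in KO, log2 ratios had a median of -0.059, with their 5th percentile at -0.55 and their 95th percentile at 0.49. Neat1 had 29.5 RPKM in WT and 2.01 RPKM in KO. The cultures also differed in sex-linked transcripts, with Xist at 28.6 RPKM in WT and 0.050 RPKM in KO and the Y-linked Eif2s3y at a listed 0 in WT and 6.30 RPKM in KO, so that genotype and the sex of the culture cannot be told apart. All 9 fibroblast markers listed were detected in both libraries, from Pdgfra, the lowest at 4.18 RPKM in WT and 13.8 RPKM in KO (log2 ratio 1.51), to Vim, the highest at 3151 RPKM in WT and 2448 RPKM in KO. Their sum was 6565 RPKM in WT and 6481 RPKM in KO, with 7 of the 9 higher in KO and a median log2 ratio of 0.31. The number of reads is not stated. Low values recurred in steps that would correspond to about 31300000 counted units in WT and 29500000 in KO, and the unit counts given below are estimates made from these totals and from GENCODE transcript lengths.

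The expression of the 6 genes ranged widely, and so did their difference between the libraries. All 6 were higher in KO, as were 30.1% of all entries and 39.1% of those that reached 1 RPKM in WT and in KO. Of the 6, 2 (Ifit1 and Ifit3) had a log2 ratio above 2, the size that 0.223% of all entries exceeded. Ifitm3 was a further gene with a log2 ratio above 1, which 0.977% of all entries and 1.68% of those reaching 1 RPKM in both exceeded. None was below -2, where 0.0171% of all entries lay. Ifit2, Ifitm1 and Ifitm2 had log2 ratios between 0.084 and 0.27, between the 5th and the 95th percentile given above. The entries that stood nearest to the threshold of 2 were Parp14 (2.00) on its upper side and H2-T9 (1.99) on its lower side.

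**Figure D1:**
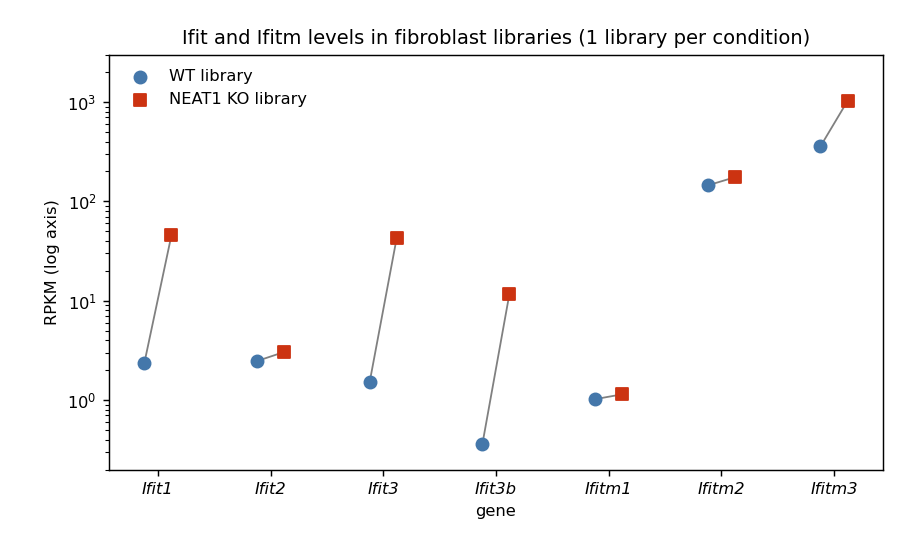
Level of each gene in RPKM on a log axis, with the WT library as circles and the NEAT1 KO library as squares joined by a line, 1 library per condition and no error bars. Ifit1, Ifit3 and the related Ifit3b were far higher in KO, Ifitm3 was higher from the highest starting level, and Ifit2, Ifitm1 and Ifitm2 were nearly level.

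Ifit1 binds viral RNA whose cap lacks ribose methylation. It lies on the forward strand of chromosome 19 from 34640889 to 34650009 (mm10) and is made of 2 exons. It had 2.37 RPKM in WT and 45.4 RPKM in KO, a ratio of 19.2 and a log2 ratio of 3.79. By its log2 ratio it ranked 4 among all entries. Behind these values stood an estimated 197 units in WT and 3560 units in KO, for which counting error alone gives a 95% interval of 16.6 to 22.2 for the ratio (exact Clopper-Pearson on the share of units from KO).

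Ifit3 is a partner that binds other Ifit proteins. It lies on the same strand from 34583529 to 34588982 and has 2 exons. It had 1.53 RPKM in WT and 43.2 RPKM in KO, a ratio of 28.2 and a log2 ratio of 4.13, which ranked 2 among all entries. The counting interval of the ratio was 22.6 to 35.4. In KO the levels of Ifit1 and Ifit3 were close, with a ratio of Ifit1 to Ifit3 of 1.05, whereas in WT it was 1.54.

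Ifit2, which binds AU-rich RNA and can hold back viral protein synthesis, departed from both. It lies from 34550694 to 34576534 on the forward strand, 6.995 kb before Ifit3. It had 2.47 RPKM in WT, the highest of the 3 Ifit genes there though close to Ifit1, and 3.05 RPKM in KO, the lowest of the 3. Its ratio was 1.23 and its log2 ratio 0.22, which ranked 1823. An estimated 296 units in WT and 344 in KO gave a counting interval of 1.05 to 1.44. In WT Ifit1 stood at 0.957 times the level of Ifit2, and in KO at 14.9 times that level. Ifit2 thus made up 38.8% of the summed RPKM of the 3 genes in WT and 3.32% in KO, while the sum itself was 6.37 RPKM in WT and 91.7 RPKM in KO. Of the 3769 windows of 50 bases in its transcript, 0 occurred in a transcript of another gene.

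**Figure D2:**
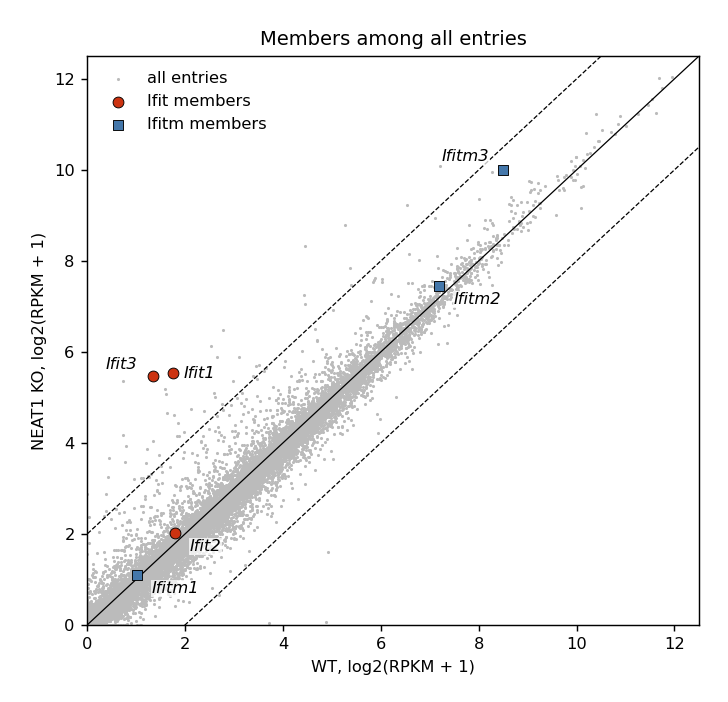
Each grey point is an entry, placed by its log2(RPKM + 1) in the WT library (x axis) and the NEAT1 KO library (y axis), with the Ifit members as circles and the Ifitm members as squares, a solid line at equal values and dashed lines at log2 ratios of 2 and -2. Ifit1 and Ifit3 lie above the upper dashed line, Ifitm3 between the lines, and Ifit2, Ifitm1 and Ifitm2 within the mass of entries.

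Other Ifit genes lie between the members. Ifit3b, listed under its older symbol I830012O16Rik, is a near copy of Ifit3: their coding sequences of 1209 bases were identical at 1198 positions. It had 0.363 RPKM in WT and 11.8 RPKM in KO (log2 ratio 3.23). Of the 1696 windows of 50 bases in the Ifit3 transcript, 51.2% also occurred in Ifit3b, so the split of reads between this pair is uncertain. Ifit1 shared 7.06% of its windows with Ifit1bl2. Ifit1bl1 (listed as Gm14446) had 0.179 RPKM in WT and 0.121 RPKM in KO. Ifit1bl2 (listed as 2010002M12Rik) had 0.0949 RPKM in WT and 0.0834 RPKM in KO. Both of these were near 0 in either library, although their coding sequences were 74.0% and 73.8% identical to that of Ifit1. The coding sequences of Ifit1 and Ifit2 were 56.5% identical, and those of Ifit2 and Ifit3 56.2%.

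The promoters of the Ifit genes are shown because the ISRE is the element that interferon acts through and because Ifit2 had a small log2 ratio beside the large ones of Ifit1 and Ifit3. The RefSeq windows on GRCm38.p6 run from 250 bases before to 50 bases after a gene's start, and all 6 genes had at least 1. Position 1 is the first transcribed base. The ISRE core was searched on both strands as GAAA, any 2 bases and GAAA again, and its matches are in capitals below, in 5′ to 3′ direction of the gene. A match on the opposite strand therefore reads as its reverse complement. The 250 bases before the start are printed, with their places on the forward strand.
Ifit1, chr19:34640639-34640888: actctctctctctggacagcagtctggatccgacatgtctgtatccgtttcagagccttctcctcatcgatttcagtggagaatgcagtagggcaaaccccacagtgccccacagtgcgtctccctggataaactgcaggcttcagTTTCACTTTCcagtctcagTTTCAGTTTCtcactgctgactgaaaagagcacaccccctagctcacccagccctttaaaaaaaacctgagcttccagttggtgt
Ifit3, chr19:34583279-34583528: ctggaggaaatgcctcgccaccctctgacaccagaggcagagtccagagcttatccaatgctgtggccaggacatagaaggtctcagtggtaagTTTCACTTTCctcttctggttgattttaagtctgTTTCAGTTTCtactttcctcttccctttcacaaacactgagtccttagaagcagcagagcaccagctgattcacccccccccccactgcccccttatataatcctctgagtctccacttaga
Ifit2, first start, chr19:34550444-34550693: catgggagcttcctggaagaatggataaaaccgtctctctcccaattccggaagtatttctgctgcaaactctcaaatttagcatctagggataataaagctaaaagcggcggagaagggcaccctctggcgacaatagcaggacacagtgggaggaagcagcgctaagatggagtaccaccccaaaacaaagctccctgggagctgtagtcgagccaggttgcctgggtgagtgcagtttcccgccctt
Ifit2, second start, chr19:34550838-34551087: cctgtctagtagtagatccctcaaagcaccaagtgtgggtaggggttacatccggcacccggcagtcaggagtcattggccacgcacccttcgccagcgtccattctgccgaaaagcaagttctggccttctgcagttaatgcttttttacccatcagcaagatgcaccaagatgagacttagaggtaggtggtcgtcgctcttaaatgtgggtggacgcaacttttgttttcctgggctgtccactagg

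The Ifit1 window held 2 matches, from -104 to -95 and from -85 to -76. The Ifit3 window also held 2, from -156 to -147 and from -122 to -113. Neither of the 2 windows of Ifit2 held one, and the first of them held a match to the gamma-activated site TTCNNNGAA at -241 to -233. These letters are absent from these windows only, and sequence elsewhere around Ifit2 was not searched. Over all 32851 windows in the table, 3.44% held the ISRE core and 8.30% the gamma-activated site. A longer form, the core followed by CT, was held by 0.271% of windows. Among the Ifit genes it was held by windows of Ifit1, Ifit3 and the related Ifit3b, and also of Ifit1bl2. The last had a log2 ratio of -0.015, but its level was near 0 RPKM in both libraries. Of the 52 entries with a log2 ratio above 2, 38 could be matched to a window by current or older symbol, and 12 of these 38 held the core in at least 1 window, against 3.89% of the 17568 listed genes that could be matched. The 52 include Ifit1, Ifit3 and the related Ifit3b and were picked by the log2 ratio itself, so this count is a description. Whether the element has a part in the ratios was not tested.

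The stretch with the matches of Ifit3 recurred in Ifit3b. Over 60 bases the sequences were identical at 60 positions, and they are set below each other to show it.
Ifit3, chr19:34583365-34583424: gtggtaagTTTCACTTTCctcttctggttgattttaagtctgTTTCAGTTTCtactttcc
Ifit3b, chr19:34607761-34607820: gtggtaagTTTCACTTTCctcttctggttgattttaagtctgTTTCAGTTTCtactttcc
Ifit1 and Ifit1bl2 point away from each other and their starts lie 146 bases apart in the files. Their windows overlap, and the 2 ISRE matches of the Ifit1 window are the same bases as the 2 in the first window of Ifit1bl2. On one side of these matches Ifit1 had a log2 ratio of 3.79, and on the other Ifit1bl2 had one of -0.015. Ifit1bl1 also held a match in each of its 2 windows, with a log2 ratio of -0.073. Both Ifit1bl1 and Ifit1bl2 were near 0 RPKM in either library, where the added 1 RPKM holds the log2 ratio near 0. The counting interval of the ratio was 0.291 to 2.39 for Ifit1bl2 and 0.250 to 1.88 for Ifit1bl1. Each holds a ratio of 1, so the direction of these differences is unsettled.

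**Figure D3:**
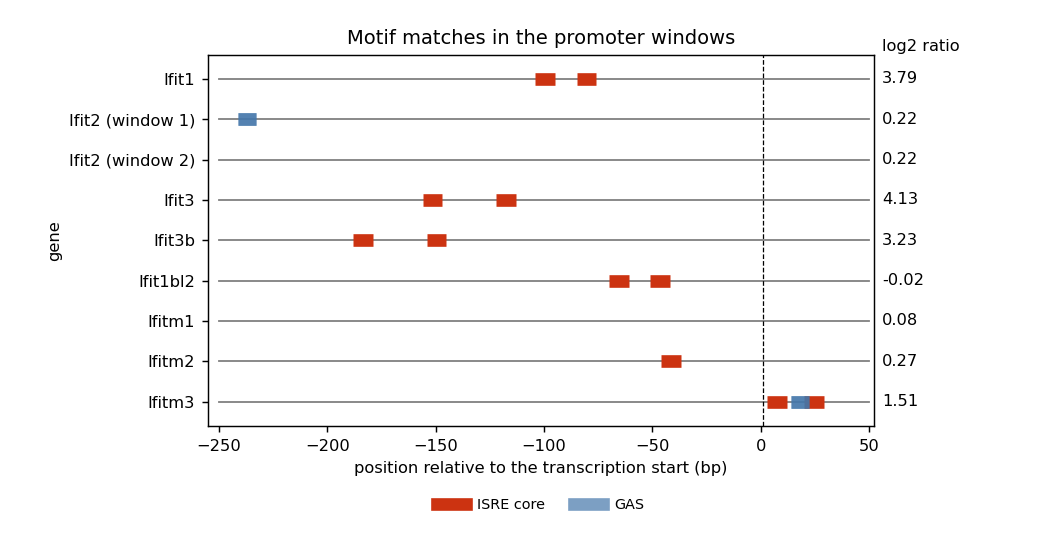
Horizontal lines are promoter windows from 250 bases before to 50 bases after the transcription start (dashed line), with red blocks for matches to the ISRE core and blue blocks for the gamma-activated site (GAS), and the log2 ratio of each gene at the right. The 2 windows of Ifit2 and the window of Ifitm1 hold no ISRE core, whereas Ifit1bl2 holds 2. Its level was near 0 RPKM in both libraries, where the added 1 RPKM holds the log2 ratio near 0.

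Among the Ifitm members, Ifitm2 and Ifitm3 had higher levels than any Ifit member in both libraries, and Ifitm1 had lower levels than all 3. Ifitm3 restricts influenza A and other viruses that enter through late endosomes, and is also known under the name fragilis from early germ cells. It lies on the reverse strand of chromosome 7 from 141009590 to 141010744, with 2 exons. It had 358.2 RPKM in WT and 1024 RPKM in KO, a ratio of 2.86 and a log2 ratio of 1.51, which ranked 111. By level it ranked 92 among all entries in WT and 30 in KO. The counting interval of its ratio was narrow, 2.78 to 2.94, because of its high level. The difference of 665.7 RPKM between KO and WT was larger than that of 85.3 RPKM over the 3 Ifit genes together, although its ratio was smaller than those of Ifit1 and Ifit3.

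Ifitm2, a close relative of Ifitm3 in sequence that also acts in endosomes, lies on the reverse strand from 140954839 to 140955961. It had 144.9 RPKM in WT and 174.9 RPKM in KO, a ratio of 1.21 and a log2 ratio of 0.27. The counting interval of the ratio was 1.15 to 1.27. Ifitm3 stood at 2.47 times the level of Ifitm2 in WT and at 5.85 times in KO. The coding sequences of Ifitm2 and Ifitm3 were 75.9% identical. Of the windows of 50 bases in Ifitm2, 48.5% occurred in a transcript of another gene, most of them in Gm45717, a transcript on the same strand that overlaps it, and for Ifitm3 this share was 10.0%.

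Ifitm1, which acts mainly at the plasma membrane, lies on the forward strand from 140967429 to 140969827, 39.8 kb from Ifitm3. It had 1.02 RPKM in WT and 1.14 RPKM in KO, a ratio of 1.12 and a log2 ratio of 0.084. With an estimated 28.2 units in WT and 29.8 in KO the counting interval reached from 0.656 to 1.97. It holds a ratio of 1, so counting error alone leaves the direction of the difference unsettled. Ifitm1 made up 0.203% of the summed RPKM of the 3 Ifitm genes in WT and 0.0953% in KO, and Ifitm3 made up 71.0% and 85.3%. The order Ifitm3, Ifitm2, Ifitm1 was the same in both libraries. Among the Ifit genes it was Ifit2, Ifit1, Ifit3 in WT and Ifit1, Ifit3, Ifit2 in KO. The first 2 of each order were close, at 2.47 and 2.37 RPKM in WT and at 45.4 and 43.2 RPKM in KO. Which of them stood first is therefore unsettled, also because of the windows that Ifit3 shares with Ifit3b.

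Other Ifitm genes were near 0 or nearly level. Ifitm5, known from bone-forming cells, had 0.671 RPKM in WT and 0.594 RPKM in KO. Ifitm6 was listed at 0 in WT and at 0.00127 RPKM in KO, and Ifitm7 on chromosome 16 was listed at 0 in both, although its coding sequence was 88.5% identical to that of Ifitm1. Ifitm10 (listed as 6330512M04Rik) had 2.02 RPKM in WT and 1.76 RPKM in KO.

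The promoters of the Ifitm genes differed in where the ISRE core lay. The window of Ifitm3 held 2 matches after the start, from 3 to 12 and from 20 to 29, both of which extended to the longer form, with a gamma-activated site from 14 to 22 that overlaps the second. Ifitm2 held 1 match before the start, from -46 to -37, and Ifitm1 held none. The Ifitm1 window belongs to a RefSeq start that lies inside the listed span of the gene. These stretches are printed to show the elements beside the ratios of 2.86, 1.21 and 1.12.
Ifitm3, bases 3 to 31, chr7:141010714-141010742: GAAAAGGAAActtctgaGAAACCGAAAct
Ifitm2, 250 bases before the start, chr7:140955962-140956211: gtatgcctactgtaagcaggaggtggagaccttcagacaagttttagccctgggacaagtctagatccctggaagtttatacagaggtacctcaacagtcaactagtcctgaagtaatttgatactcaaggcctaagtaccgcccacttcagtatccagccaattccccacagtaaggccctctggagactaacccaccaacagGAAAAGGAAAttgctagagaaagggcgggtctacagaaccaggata
Ifitm1, 250 bases before the start, chr7:140967826-140968075: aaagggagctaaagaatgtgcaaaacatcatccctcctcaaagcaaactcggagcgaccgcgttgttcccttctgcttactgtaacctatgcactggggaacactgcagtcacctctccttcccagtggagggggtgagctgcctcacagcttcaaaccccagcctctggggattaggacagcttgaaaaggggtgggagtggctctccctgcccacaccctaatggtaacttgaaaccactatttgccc
In all, 4 of the 6 genes held the core in a window. The 3 with a log2 ratio above 1 were among them, and Ifitm2 held it with a log2 ratio of 0.27. The 6 genes were named with their values known, and a link between the core and the ratio was not tested.

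Entries around the clusters were compared to see how far the differences reached. Within 500 kb of the Ifit members, 8 other entries had at least 1 RPKM in either library, with a median log2 ratio of 0.18. Of these, 2 had a log2 ratio above 2. One was Ifit3b and the other Ch25h, the enzyme that makes the antiviral sterol 25-hydroxycholesterol, which lies 75.6 kb before Ifit2 and had 9.83 RPKM in WT and 50.7 RPKM in KO (log2 ratio 2.25). Lipa, a lysosomal lipase gene between Ch25h and Ifit2, had 18.3 RPKM in WT and 21.5 RPKM in KO. Acta2, the smooth muscle actin gene, had 1769 RPKM in WT and 1768 RPKM in KO. Fas had 5.25 RPKM in WT and 9.48 RPKM in KO (log2 ratio 0.75), and Kif20b had 1.27 RPKM in WT and 0.447 RPKM in KO (log2 ratio -0.65). Within 500 kb of the Ifitm members, 28 other entries had at least 1 RPKM, with a median log2 ratio of -0.081. The single one above 2 was Irf7, which encodes a transcription factor that amplifies interferon production and lies 252.4 kb from Ifitm3. It had 5.24 RPKM in WT and 58.1 RPKM in KO (log2 ratio 3.24). Neat1 lies on the same chromosome as the Ifit cluster, 28705 kb away.

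**Figure D4:**
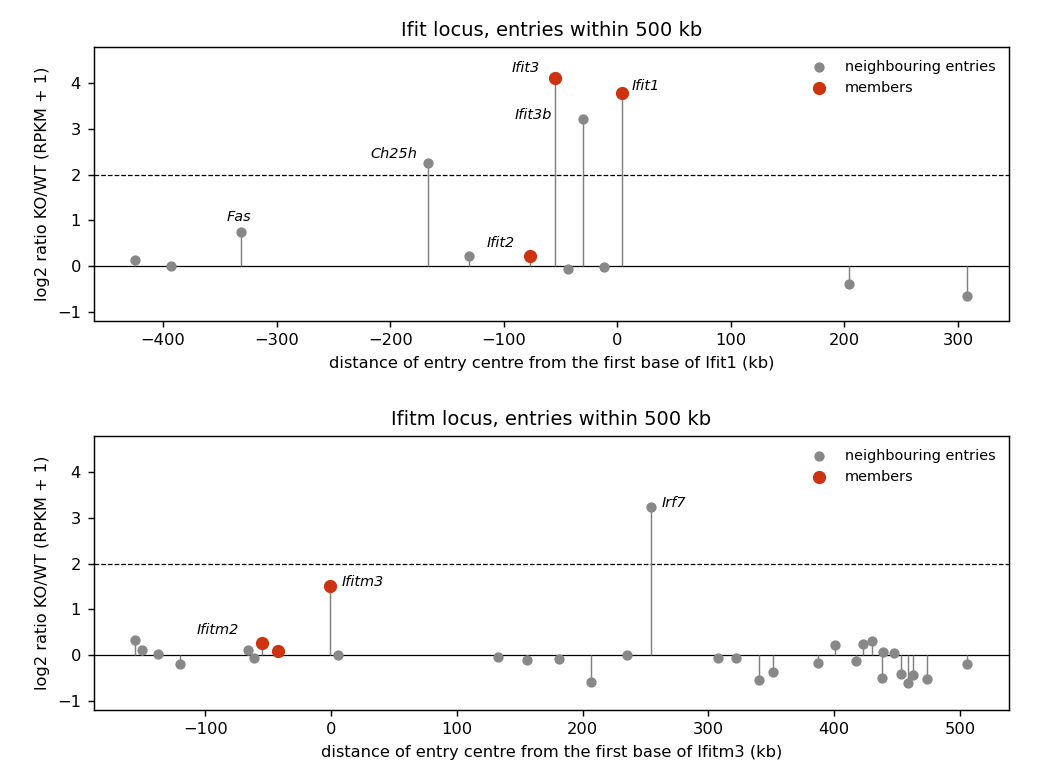
Log2 ratio of KO over WT for entries within 500 kb of the Ifit members (top) and the Ifitm members (bottom) that had at least 1 RPKM in either library, together with the other Ifit and Ifitm genes, against the distance of the centre of each entry in kb from the first base of Ifit1 or Ifitm3, with a dashed line at a log2 ratio of 2. Large ratios alternate with ratios near 0 inside the Ifit cluster, and Irf7 is the only entry above 2 around the Ifitm cluster. Inside the Ifit cluster, Ifit1bl1 and Ifit1bl2 were near 0 RPKM in both libraries, where the added 1 RPKM holds the log2 ratio near 0.

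The pathway that leads to these genes was examined by its parts, from lists written with earlier results of these data known. Interferon genes were hardly detected. Of 19 listed, 15 were at 0 in both libraries, and Ifnb1, the interferon made by fibroblasts, was listed at 0 in WT and at 0.0758 RPKM in KO. Of 6 receptor genes, 0 passed a log2 ratio of 2 in either direction, with a median of 0.23. Ifnar1 had 15.2 RPKM in WT and 18.4 RPKM in KO, and Ifnar2 had 11.1 RPKM in WT and 15.6 RPKM in KO. Of the ISGF3 components, Stat2 had 5.75 RPKM in WT and 27.8 RPKM in KO (log2 ratio 2.10). Irf9 had 10.5 RPKM in WT and 29.5 RPKM in KO (log2 ratio 1.40). The kinase genes Jak1 and Tyk2 had log2 ratios of 0.073 and 0.15. Among other factors that can bind ISRE-like sequences, Irf7 is given above, and Irf3 had 21.5 RPKM in WT and 21.6 RPKM in KO. Irf1 had 4.39 RPKM in WT and 7.50 RPKM in KO (log2 ratio 0.66), and Irf5 had 2.67 RPKM in WT and 3.65 RPKM in KO (log2 ratio 0.34).

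Other families of interferon-stimulated genes were set beside the members. Of 12 oligoadenylate synthetase genes, which activate the RNA-degrading enzyme RNase L or relate to those that do, 3 had a log2 ratio above 2 and the median was 0.79. Of 5 genes of Isg15 and its conjugation, 2 were above 2 and the median was 1.73. Of 13 interferon-inducible GTPase genes, 6 were above 2 and the median was 1.46. None of these lists had an entry below -2. Over all entries, 0.223% were above 2 and 0.0171% below -2. The median was 3.79 for the 3 Ifit members and 0.27 for the 3 Ifitm members. These medians are not on equal terms, because the added 1 RPKM shrinks the log2 ratios of genes with low values. Of the 12 Oas genes, 4 were listed at 0 in WT and 2 of these also in KO. Summed levels in WT and KO were 5.33 and 64.9 RPKM for the Oas list and 34.8 and 437.8 RPKM for the Isg15 list. They were 30.1 and 125.8 RPKM for the GTPases and 6.37 and 91.7 RPKM for the Ifit members. The Oas list, like the members, held both large and small log2 ratios, such as Oasl2 with 3.60 and Oas1c with 0.30. Of 6 inhibitors of the pathway, with a median log2 ratio of 0.50, 1 was above 2. It was Usp18 (also counted with Isg15), which blocks the interferon receptor and removes Isg15 from proteins, with 5.85 RPKM in WT and 88.0 RPKM in KO.

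**Figure D5:**
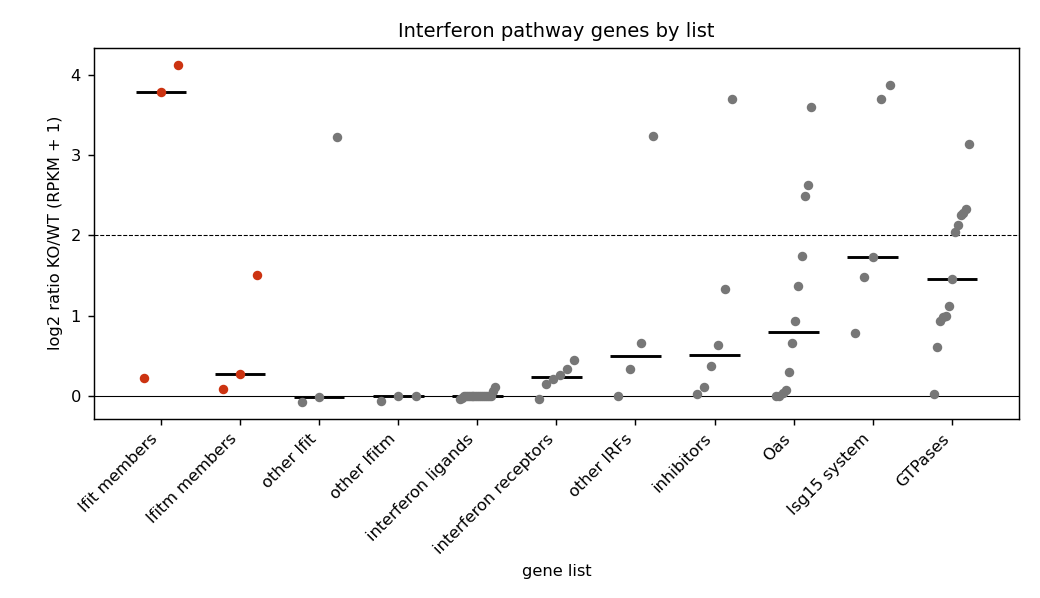
Log2 ratio of KO over WT for each gene (points) of the members and of the interferon pathway lists, with a bar at the median of each list and a dashed line at a log2 ratio of 2. Receptors lie near 0, the Oas and GTPase lists spread from near 0 to above 2, and Usp18 is drawn both among the inhibitors and in the Isg15 system. Ligands also lie near 0, but 15 of the 19 were listed at 0 in both libraries, where the added 1 RPKM fixes the log2 ratio at 0. The same holds for 2 of the 12 Oas genes.

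By level in both libraries the entries closest to each member were found as the distance on the plane of log2(RPKM + 1), which covers 2 libraries only. For Ifit1 and for Ifit3 the nearest entry was Oasl2, at 0.38 and 0.37 log2 units, and the next was the other of the pair, at 0.42. Cxcl1, a chemokine gene, followed for both, with 2.05 RPKM in WT and 32.7 RPKM in KO. For Ifitm3 the nearest was Mt1, a metallothionein gene, at 0.22 log2 units, with 309 RPKM in WT and 984 RPKM in KO. Ifit2 lay among entries at 0.010 log2 units, such as Thsd1 and Tanc2. Ifitm1 lay nearest to Angel1 and Ifitm2 nearest to Mrpl52.

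Markers of other cells were listed because Ifit and Ifitm genes are also expressed in leukocytes, endothelium and germ cells. All 12 macrophage and leukocyte markers listed were higher in KO, some only slightly. The same held for 30.1% of all entries and 39.1% of those that reached 1 RPKM in both libraries. The summed level of the 12 markers was 21.7 RPKM in WT and 53.0 RPKM in KO, with Lyz2 the largest part at 13.9 and 34.7 RPKM, and none was listed at 0. Ptprc, the common leukocyte antigen gene, had 0.0449 RPKM in WT and 0.0813 RPKM in KO. Mrc1 was low and nearly level, with 0.0804 RPKM in WT and 0.0817 RPKM in KO. The part of these cells in the ratios of Ifit1, Ifit3 and Ifitm3 was not tested, and in bulk RNA more cells of a type and more RNA per cell cannot be told apart. Of 5 dendritic cell markers, Siglech and Flt3 were listed at 0 in both libraries, and the summed level of 137.3 RPKM in WT and 488.3 RPKM in KO was nearly all Bst2, which is itself interferon-responsive. The 6 endothelial markers summed to 1.35 RPKM in WT and 0.719 RPKM in KO, with Kdr the largest part at 1.01 and 0.397 RPKM. The 7 germ cell markers summed to 1.98 RPKM in WT and 4.97 RPKM in KO, with Pou5f1 at a listed 0 in both. Only 2 of the 7 were higher in KO, and the higher sum came from Prdm1, at 0.406 RPKM in WT and 3.98 RPKM in KO. The other 4 were lower in KO, among them Dnd1 at 1.40 RPKM in WT and 0.860 RPKM in KO. The 5 epithelial markers summed to 25.6 RPKM in WT and 26.6 RPKM in KO. Nearly all of this was Krt19, at 24.6 and 25.9 RPKM, and Cdh1 was listed at 0 in both.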

How the data were processed

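RNA of 1 WT and 1 NEAT1 KO MEF culture was converted to poly-A libraries by Illumina protocols. The authors computed and deposited RPKM values. The submitters' processing notes name CASAVA 1.8 and the builds mm10 and hg18, and the aligner and counter are not given in the sources used here. The entries carry RefSeq identifiers, and of 20641 entries on the chromosome that RefSeq gives for GRCm38 (the assembly of mm10), 11539 had the same first base once 1 was added to the start, against 695 as printed, so starts are given here raised by 1.

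Log2 ratios were computed from the deposited RPKM values with a pseudocount of 1, every entry being kept. Members, lists and motifs were chosen with earlier results of these data known. The genes named are the members, their relatives, neighbours within 500 kb with at least 1 RPKM, the 3 nearest entries of each member, and from each list the 4 with the largest absolute log2 ratio or those with a role needed. Neighbours left out entries of over 1 Mb.

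The number of reads is not stated. Of the 3320 entries listed between 0 and 0.5 RPKM in WT and in KO alike, 127 shared the ratio of KO to WT of 1.06 (within 0.001 of it, relative). Of the 113 of these with a GENCODE M21 transcript length, 48 implied about 31300000 units in WT, and 11 implied a total of 2 times that. The smallest value above 0 was 8e-05 RPKM, below 1 unit, so the unit counts are estimates. Intervals cover counting error only and were added after the data were seen.

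Scripts were tested on simulated data. Python 3.11.15, numpy 2.4.6, pandas 2.3.3, SciPy 1.17.1, Biopython 1.88 and matplotlib 3.10.9 were used. One gene of the pathway is not reported here. The human libraries were not used here, and no protein sequence was used.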

Additional observations from a re-analysis of the deposited data

How the results depend on the processing

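A log2 ratio was taken as moved past 0.58 and a count past 1.5 times, since no replicate spread exists. Under quantile normalization each of the 6 genes stayed higher in KO. The pseudocount of 0.1 cannot change the sign of a log2 ratio. Centring on the median, which was negative, raised the log2 ratio of every gene. These 2 settings are therefore checks of the size of a ratio and not of its direction. The minimum of 1 RPKM and the ways of treating repeated symbols could not change a value and are no check. No symbol was repeated, all 6 genes exceeded 1 RPKM, and so did any entry past 2 or -2 in at least 1 library. Across the settings the log2 ratio ranged from 3.79 to 4.21 for Ifit1, from 0.22 to 0.30 for Ifit2, from 4.13 to 4.73 for Ifit3, from 0.084 to 0.16 for Ifitm1, from 0.17 to 0.33 for Ifitm2 and from 1.34 to 1.57 for Ifitm3. The pseudocount of 0.1 gave 4.73 for Ifit3, 118 entries above 2 in place of 52, and 55 entries below -2 in place of 4, since it lets low values count for more. Within 250 kb of the Ifitm members 0 entries were above 2, because Irf7 lies farther away. With 1 mismatch allowed, 5 of the 6 genes held the ISRE core, as did 35.4% of all windows. The other 73 recomputed values kept within these limits, including those of the settings that could not change a value. No paired analysis was possible because there was 1 library per condition. Of the 6 genes, Ifitm1 is limited most by the few units estimated behind its values.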

Other observations

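Genes that work beside the members were also listed. Of 10 genes known from virus entry or from the modification and turnover of Ifitm proteins, Ch25h was the one with a log2 ratio above 2, and 8 of the 10 were lower in KO, with log2 ratios from -0.52 to -0.047, between the 5th and 95th percentiles of entries that reached 1 RPKM in WT and in KO. Of those entries 39.1% were higher in KO, so that most genes at such levels were not. Zdhhc20, a palmitoyltransferase that acts on Ifitm3, had 15.9 RPKM in WT and 10.8 RPKM in KO. Nedd4, a ubiquitin ligase for Ifitm3, had 211.8 RPKM in WT and 184.3 RPKM in KO.

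Of 5 translation genes listed because Ifit1 and Ifit2 bind the initiation factor eIF3 or because of the shared antiviral role, Eif2ak2, the interferon-responsive kinase PKR, had 7.29 RPKM in WT and 16.9 RPKM in KO (log2 ratio 1.11). The other 4 were lower in KO, with log2 ratios from -0.46 to -0.088 that also lay between those percentiles, among them Eif3e with 40.2 RPKM in WT and 30.4 RPKM in KO, and Eif3c with 126.0 RPKM in WT and 118.5 RPKM in KO.

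More distant relatives of the Ifitm genes, which share the CD225 domain, were low. Of 5 found, Prrt2 was the highest, with 1.20 RPKM in WT and 1.22 RPKM in KO, and Tmem233 was listed at 0 in both.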
